A study of Mus musculus with 4 samples.

Results

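The 503 protein-coding genes of at least 300 kb on mouse chromosomes 1 to 19 were taken from the GENCODE vM1 annotation (build mm9), out of 21418 protein-coding genes on these chromosomes (2.35%), by length alone and with no use of the acetylation data. Their bodies covered 282.5 Mb, or 11.4% of the 19 chromosomes. The data came from chromatin immunoprecipitation followed by sequencing (ChIP-seq) in untreated mouse embryonic stem (mES) cells, with 1 library for acetylation of histone H3 at lysine 9 (H3K9ac, a rabbit polyclonal antibody), 1 library for each of 2 mouse monoclonal antibodies against acetylation at lysine 14 (H3K14ac, clones 13HH3 and 7G8) and 1 input library of sheared chromatin without antibody. The labels name the E14 line of strain 129P2/OlaHsd between passages 25 and 30. The methods of the study instead speak of wild type cells obtained from blastocysts, grown on feeder cells and then without them on gelatin. After removal of repeated tags the libraries held 23181544 (H3K9ac), 21626227 (13HH3), 23837354 (7G8) and 19313142 (input) tags.

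Acetylated H3K9 and H3K14 mark nucleosomes at active promoters and enhancers, where acetyl groups are written by histone acetyltransferases and read by bromodomain proteins. In ES cells, promoters rich in CpG dinucleotides carry such marks even at many genes that are transcribed little, and very long genes are enriched for synaptic, adhesion and channel proteins that are used mainly in neurons. A very long gene separates its promoter from most of its transcribed length by large introns, so that the 5′ end and the body can be read apart.

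Each gene was divided into the TSS window (the annotated 5′ end with 2 kb on each side), the first 20 kb after it, and the rest of the body, and bases within 5 kb of any annotated start were left out of both body zones. Tags were scaled to 10000000 per library, and values are given as log2 over input with a pseudocount of 1 scaled tag. A TSS window was called at 2-fold or more over input, and a body at 0.32 or more over or under it on the log2 scale, each with a 95% interval of the ratio on the same side of 0. Intervals are exact (Clopper-Pearson), cover counting error only and say nothing of the spread between cultures, since each antibody had 1 library and no difference could be tested. Among 8 ES cell markers 7 were called for H3K9ac at the TSS window, with Zfp42 at 3.98, Sox2 at 3.39 and Pou5f1 at 2.46, and Esrrb at 0.01 as the exception. Of the fibroblast markers 1 of 6 was called (Prrx1, 1.12), and of the neural markers 1 of 4 (Tubb3, 1.21). Among those not called, Olig2 (0.98), Col1a1 (0.98) and Twist2 (0.97) fell just short of 2-fold, and only Col3a1 (-0.30) lay under input.

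To show the bases at examples of high and low 5′ ends, the 250 bases upstream of the TSS are printed for 1 member high and 2 members low in H3K9ac at the TSS window, 5′ to 3′ on the strand of the gene, with CpG dinucleotides in capitals (build mm9). The high one is the fourth in rank, with the upstream bases of the first and the second left out because they touched exons of neighbouring genes, and it does not stand for all high members, of which Exoc4 for one had a CpG-poor TSS. 4930473A06Rik (chr4:83171199-83171448, plus strand) held 39 CpGs, against 0 in Agbl1 (chr7:83462708-83462957, plus strand) and 6 in Rbms3 (chr9:117539032-117539281, minus strand). The median was 14 CpGs for the members and 9 for all protein-coding genes.
4930473A06Rik: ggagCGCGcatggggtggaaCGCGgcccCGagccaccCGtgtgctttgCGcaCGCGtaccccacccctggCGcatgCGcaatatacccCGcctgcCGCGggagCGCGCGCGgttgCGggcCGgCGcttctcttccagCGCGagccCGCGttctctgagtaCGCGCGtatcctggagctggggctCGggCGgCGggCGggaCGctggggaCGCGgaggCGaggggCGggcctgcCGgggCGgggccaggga
Agbl1: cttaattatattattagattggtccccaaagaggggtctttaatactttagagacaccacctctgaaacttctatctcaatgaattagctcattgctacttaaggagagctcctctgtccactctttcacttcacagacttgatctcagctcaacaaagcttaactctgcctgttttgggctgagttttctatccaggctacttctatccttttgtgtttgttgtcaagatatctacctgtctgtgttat
Rbms3: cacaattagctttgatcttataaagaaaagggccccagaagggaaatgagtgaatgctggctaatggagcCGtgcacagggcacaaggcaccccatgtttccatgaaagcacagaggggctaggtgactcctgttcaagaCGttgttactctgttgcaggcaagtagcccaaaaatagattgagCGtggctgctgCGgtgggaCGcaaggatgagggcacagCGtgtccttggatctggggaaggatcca

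The second set shows the centres of the densest acetylated windows found inside the bodies, all in introns and away from any annotated start. They are printed in lower case on the plus strand of mm9, from Etl4 (chr2:20590351-20590650, 47.3% GC and 10 CpGs), Gm20388 (chr8:125080351-125080650, 58.0% GC and 3 CpGs) and Fgfr2 (chr7:140197351-140197650, 58.3% GC and 4 CpGs).
Etl4: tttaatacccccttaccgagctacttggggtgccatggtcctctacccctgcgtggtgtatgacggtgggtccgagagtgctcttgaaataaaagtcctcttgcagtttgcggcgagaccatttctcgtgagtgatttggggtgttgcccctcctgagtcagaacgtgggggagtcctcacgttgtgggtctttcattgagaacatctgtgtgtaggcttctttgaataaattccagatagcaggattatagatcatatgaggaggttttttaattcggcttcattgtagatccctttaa
Gm20388: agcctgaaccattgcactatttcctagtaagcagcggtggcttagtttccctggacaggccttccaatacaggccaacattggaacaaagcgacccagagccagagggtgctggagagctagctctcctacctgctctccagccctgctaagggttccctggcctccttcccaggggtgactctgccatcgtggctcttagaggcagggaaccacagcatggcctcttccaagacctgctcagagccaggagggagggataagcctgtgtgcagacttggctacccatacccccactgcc
Fgfr2: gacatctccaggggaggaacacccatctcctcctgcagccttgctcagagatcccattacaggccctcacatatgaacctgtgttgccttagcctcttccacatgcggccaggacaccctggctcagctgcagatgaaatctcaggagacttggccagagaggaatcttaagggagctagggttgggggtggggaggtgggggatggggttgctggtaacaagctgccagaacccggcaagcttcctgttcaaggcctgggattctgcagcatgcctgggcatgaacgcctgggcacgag

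The long genes carried H3K9ac at the 5′ end and little of it along the body. The median H3K9ac level over input was 1.13 in the TSS window (interquartile range 0.46 to 1.66), -0.38 in the first 20 kb and -0.46 in the rest of the body (-0.73 to -0.19). H3K14ac followed in weaker form at the 5′ end, with medians of 0.34 (13HH3) and 0.18 (7G8), and lay near input in the rest, at -0.05 (13HH3) and 0.08 (7G8). In 471 of 503 members the TSS window was higher than the rest for H3K9ac, in 391 for 13HH3 and in 307 for 7G8. The first 20 kb differed less from the rest and was the higher of the 2 zones in 318 of 498 members with enough bases counted for H3K9ac, 274 for 13HH3 and 229 for 7G8.

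Fewer of the long genes were called at the 5′ end than genes of intermediate length. For H3K9ac 278 members (55.3%) were called, where 55.2% of all protein-coding genes were, so the share of members lay at the background. The same share was 65.6% of the 1778 genes of 100 to 300 kb, 68.8% of the 4770 genes of 30 to 100 kb and 49.4% of the 14367 shorter genes. With 13HH3, 67 members (13.3%) were called against a background of 14.6%, and with 7G8, 38 members (7.55%) against 14.9%. The share for 7G8 was 13.7% in genes of 100 to 300 kb and 20.3% in those of 30 to 100 kb, so a smaller share of the members than of either of these classes was called with all 3 antibodies.

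**Figure D1:**
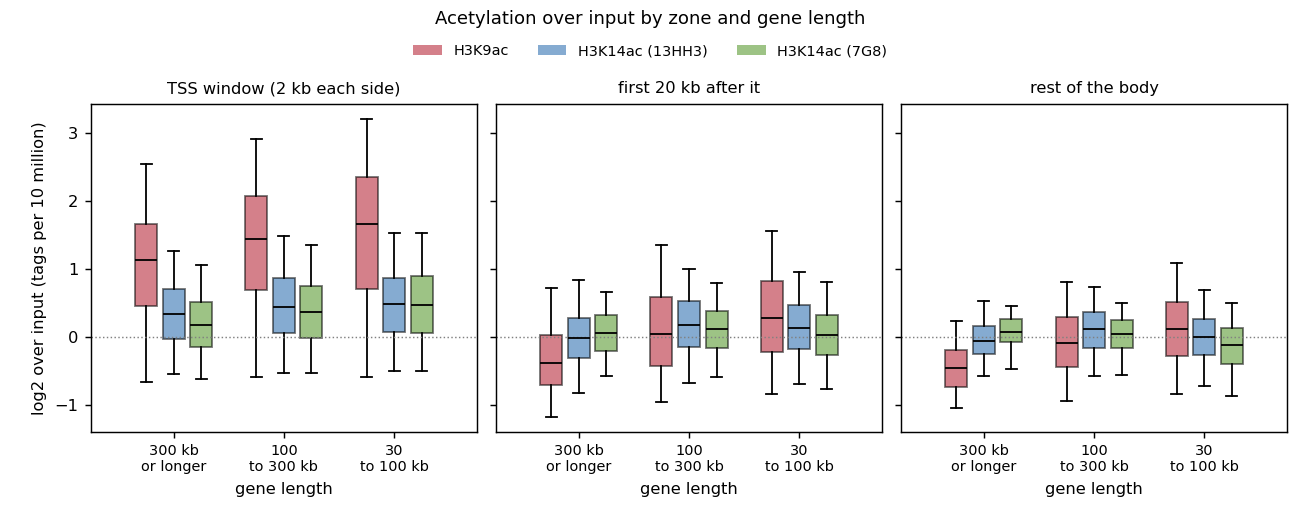
Log2 over input of scaled tags in the TSS window, the first 20 kb and the rest of the body, for genes of 300 kb or longer, 100 to 300 kb and 30 to 100 kb. Lines are medians, boxes the interquartile range and whiskers the 5th and 95th percentiles over genes. For H3K9ac the medians of the rest of the body are -0.46, -0.09 and 0.12 in this order of length, and those of the TSS window 1.13, 1.44 and 1.67.

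In the rest of the body, with libraries scaled by their totals, H3K9ac was the mark in which the long genes stood lowest. Here 321 members (63.8%) were called under input for H3K9ac, against 26.6% of the 6883 genes whose rest could be counted, and 17 members (3.38%) were called over it, against 29.0%. For 13HH3, 87 members (17.3%) were under input, near the background of 16.6%, and 69 (13.7%) over it, against 21.4%. For 7G8 the order turned, with 37 members (7.36%) under input against 22.1%, and 90 (17.9%) over it against 12.0%. Medians of the rest were -0.09 (H3K9ac), 0.11 (13HH3) and 0.04 (7G8) for genes of 100 to 300 kb, and 0.12, -0.00 and -0.11 for genes of 30 to 100 kb.

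The bodies lay near the level of the genome outside genes. Over 101207 bins of 10 kb outside genes, the median log2 over input was -0.54 for H3K9ac, -0.16 for 13HH3 and 0.07 for 7G8. The median rest of the members lay 0.08 (H3K9ac), 0.11 (13HH3) and 0.01 (7G8) above these bins. Of 503 members, 291 (57.9%) stood above the median bin for H3K9ac, 318 (63.2%) for 13HH3 and 257 (51.1%) for 7G8. When libraries were scaled to these bins in place of the library totals, the median rest turned to 0.08 for H3K9ac, and 70 members were called under input and 132 over it. With this scaling 39 members were under and 123 over input for 13HH3, so more were over than under, and 49 were under and 54 over for 7G8, so the excess over input was all but gone. The H3K9ac medians were then 0.08, 0.45 and 0.65 from the longest class to that of 30 to 100 kb. The sign of H3K9ac in the body therefore depends on the scaling. A single factor per library shifts all length classes alike, so this scaling could not turn their order.

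Body and surroundings were also close in their medians, with a wide spread over genes. In the 492 members with countable flanks, the flanks outside genes (5 to 105 kb beyond both ends) had a median H3K9ac level of -0.42. The rest had a median of -0.47 and was the higher one in 199 members (40.4%). Rest minus flanks ran from -0.57 to 0.42 between the 5th and the 95th percentile for H3K9ac, and Etl4 (0.92) and Dst (0.88) were among the members far above their flanks. For 13HH3 it was the higher one in 255 members (51.8%) and for 7G8 in 308 (62.6%). Cut into 3 equal parts from 5′ to 3′, the rest gave H3K9ac medians of -0.45, -0.50 and -0.49, 13HH3 medians of -0.04, -0.08 and -0.08, and 7G8 medians of 0.11, 0.11 and 0.05. The 3 parts thus lay close to each other in every library.

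Summed over members in 5 kb bins, H3K9ac and 13HH3 peaked at the 5′ end, with 0.77 and 0.27 in the first 5 kb of the gene. 7G8 had no such peak in these bins, with 0.08 there and up to 0.09 in the bins from 5 to 100 kb. The 5 kb upstream of the 5′ end stood lower, at 0.34 (H3K9ac), -0.06 (13HH3) and -0.03 (7G8). In the TSS window, by medians over members, 7G8 stood at 0.18, against 0.06 in the first 20 kb. Upstream bins left out all annotated genes, whereas bins within the gene left out only bases around other starts. The sides are thus not counted alike, and the shape of the peak cannot be read from them. From 20 to 100 kb into the gene, the median bin of the members was -0.35 for H3K9ac, 0.06 for 13HH3 and 0.06 for 7G8. Genes of 100 to 300 kb stood at 0.01, 0.19 and 0.04. By medians over genes in place of sums, the members stood at -0.43, -0.02 and 0.08 and genes of 100 to 300 kb at -0.10, 0.09 and 0.05.

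CpG content of the promoter divided the members. A TSS was counted as CpG-rich with a GC content of at least 50% and an observed to expected CpG ratio of at least 0.6 within 500 bases on each side, which held for 287 members (57.1%) and for 45.1% of all protein-coding genes. H3K9ac was called in 216 of the 287 CpG-rich members (75.3%) and in 62 of the 216 CpG-poor ones (28.7%). From the members to genes of 30 to 100 kb, the H3K9ac medians of CpG-rich TSS windows rose (1.42, 1.79 and 2.12). Those of CpG-poor ones were nearly level (0.48, 0.49 and 0.53). With 13HH3, 52 CpG-rich members (18.1%) and 15 CpG-poor ones (6.94%) were called, and with 7G8, 28 (9.76%) and 10 (4.63%). Over 503 members the Spearman correlation of the CpG ratio with the TSS window was 0.59 for H3K9ac, 0.36 for 13HH3 and 0.19 for 7G8, given as a description, since all points share the same libraries and base composition acts on both axes.

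The bodies of CpG-rich members held more 13HH3 than the sequence outside genes upstream of them. Summed over these members, in the 19 bins between 5 and 100 kb into the gene 13HH3 ran from 0.06 to 0.20 (median 0.17), and all 19 bins lay above input. In the 19 bins from 100 to 5 kb upstream it ran from -0.16 to -0.02 (median -0.06), and none lay above input. The sides of the TSS thus did not overlap. Libraries are scaled here by their totals, and bins outside genes had a 13HH3 median of -0.16. The number of bins above input therefore depends on the scaling. These sums give more weight to members with many tags. The median over members, bin by bin, ran from 0 to 0.13 within the gene (median 0.066, 18 of 19 bins above 0) and from -0.15 to -0.03 upstream. Farther in, between 200 and 300 kb, the median bin was 0.03 by the sums and -0.04 by the medians over members. In CpG-poor members the same antibody had medians of -0.19 upstream, -0.11 from 5 to 100 kb and -0.15 from 200 to 300 kb. H3K9ac of CpG-rich members was also highest from 5 to 100 kb, with medians of -0.36 upstream, -0.23 from 5 to 100 kb and -0.40 from 200 to 300 kb, and that of CpG-poor members stood at -0.53, -0.49 and -0.60. By the sums, the H3K9ac bins from 200 to 300 kb were thus lower than those upstream, whereas the 13HH3 bins were higher. By the medians over members, H3K9ac stood at -0.42 in both stretches in CpG-rich members. In CpG-poor members it stood at -0.54 upstream and -0.56 from 200 to 300 kb. By the sums in genes of 100 to 300 kb, not divided by CpG content, the median 13HH3 bin also rose, from 0.05 upstream to 0.21 from 5 to 100 kb. The sides did not overlap there either, with -0.007 to 0.066 upstream and 0.10 to 0.27 within the gene. In CpG-poor members they did, with -0.24 to -0.11 and -0.18 to -0.04. Outside genes, 13HH3 ran from -0.51 in bins of 32% GC to 0.15 in those of 53%. The part of GC content in the rise was not tested. Neighbouring bins share fragments and the same genes, and the bins are not replicates.

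**Figure D2:**
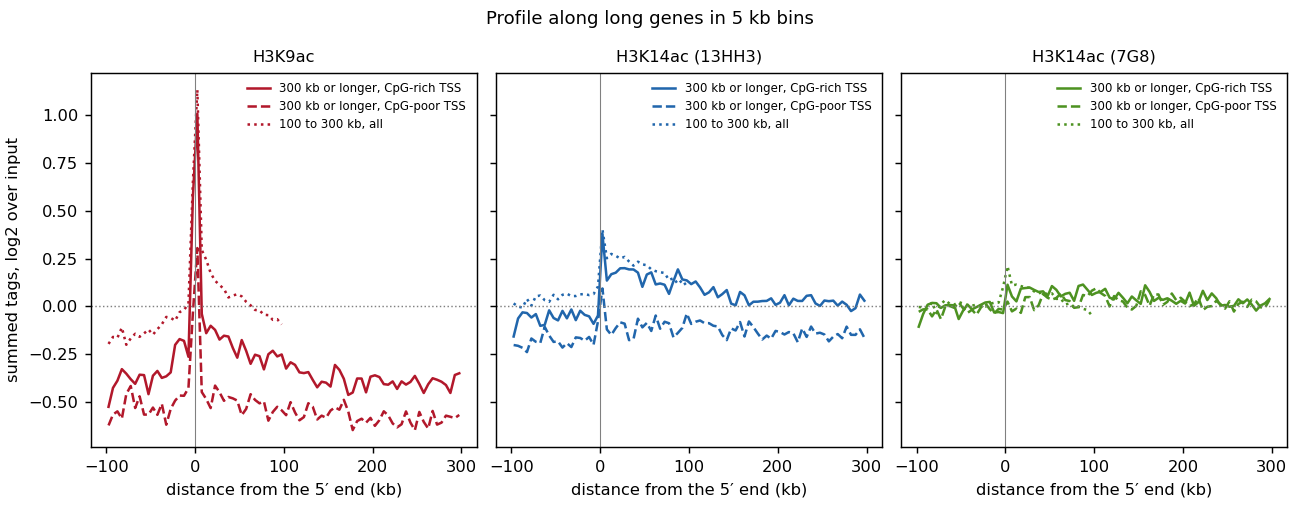
Log2 over input of summed tags in 5 kb bins from 100 kb upstream to 300 kb downstream of the 5′ end, for members with a CpG-rich TSS (solid), members with a CpG-poor TSS (dashed) and genes of 100 to 300 kb (dotted, drawn to 100 kb). 13HH3 of CpG-rich members lies above input in all 19 bins from 5 to 100 kb, with a median of 0.17. It lies below input in the 19 bins from 100 to 5 kb upstream, with a median of -0.06. Libraries are scaled by their totals, and bins upstream leave out annotated genes.

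Levels at the 5′ end and in the body went together among members. The median H3K9ac level of the rest was -0.34 in the 278 members called at the TSS window and -0.60 in the others. In genes of 100 to 300 kb the same medians were 0.10 (1167 called genes) and -0.44, and in genes of 30 to 100 kb 0.30 (2880 called genes) and -0.29, and the members had the lowest median of the 3 classes in both states. Spearman correlations over 503 members were 0.47 between TSS window and rest for H3K9ac, and in the rest 0.80 between H3K9ac and 13HH3, 0.57 between H3K9ac and 7G8 and 0.47 between the H3K14ac antibodies. All these pairs share the input as denominator, and each pair of zones shares its libraries. GC content of the rest went with its level in opposite directions for the H3K14ac antibodies, at 0.46 for 13HH3 and -0.45 for 7G8, with 0.10 for H3K9ac. After correction for the GC content of bins outside genes the median rest was 0.08 (H3K9ac) and 0.10 (13HH3). Scaling by these bins with no GC term gave 0.08 and 0.11, so the correction does not single out the part of GC content. Length itself went weakly with the rest, at -0.18 (H3K9ac), -0.16 (13HH3) and 0.07 (7G8).

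**Figure D3:**
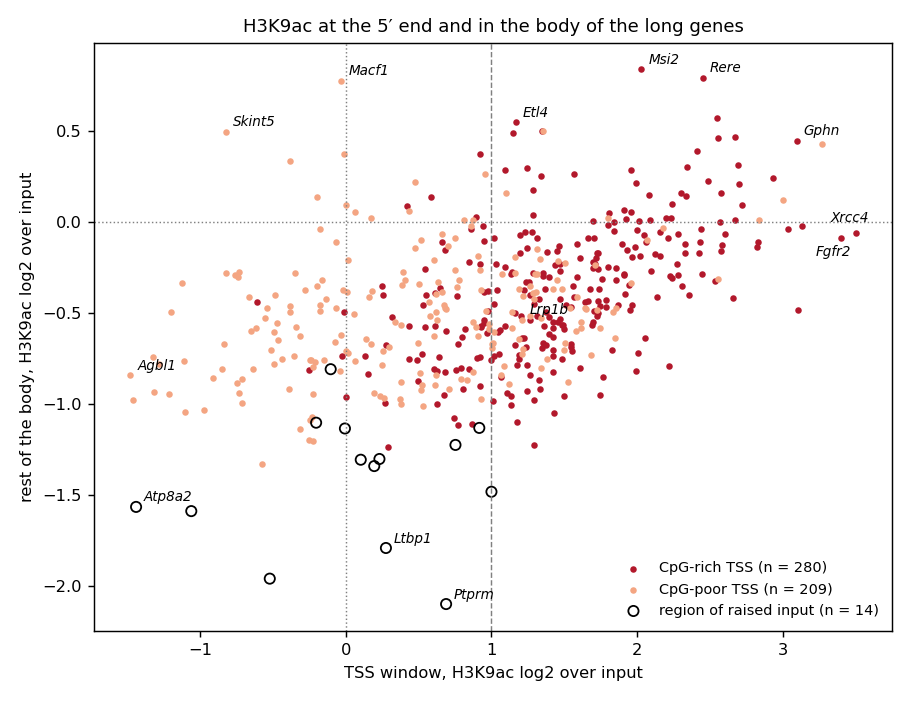
H3K9ac log2 over input in the TSS window (horizontal) and in the rest of the body (vertical) for the 503 members, 1 point a gene, coloured by CpG class, with open circles for the 14 members in regions of raised input. The dashed line marks the 2-fold call and dotted lines mark input. Most points right of the dashed line are CpG-rich, and the open circles hold 9 of the 10 lowest bodies.

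The highest H3K9ac levels at the 5′ end, from 3.00 to 3.50 among the 8 highest members, stood far above the member median of 1.13. Xrcc4, the partner of DNA ligase IV in end joining (chr13:89913632-90229213, minus strand), held 296 H3K9ac, 54 13HH3, 75 7G8 and 20 input tags in its TSS window. Its log2 over input was 3.50 for H3K9ac (interval 2.97 to 4.36), 1.19 for 13HH3 and 1.52 for 7G8. Its rest stood at -0.06 for H3K9ac (interval -0.16 to 0.05), with libraries scaled by their totals. The median member stood at -0.46 and the median bin outside genes at -0.54, so the body lay above both.

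Fgfr2, a receptor tyrosine kinase for fibroblast growth factors (chr7:137305965-140315033, minus strand), held 339, 149, 67 and 25 tags in the same order, with 3.40 (interval 2.91 to 4.15), 2.33 and 1.06 over input. This window had the highest 13HH3 value of the 5 members described at this end. It also holds the start of Ctbp2, so its tags cannot be assigned to Fgfr2 alone. Gphn, which codes for gephyrin, the scaffold of inhibitory synapses that also makes the molybdenum cofactor, held 243, 68, 55 and 22 tags, with 3.09 (2.57 to 3.90), 1.39 and 0.96. Exoc4, a subunit of the exocyst that tethers secretory vesicles, held 323, 126, 117 and 32 tags, with 3.00 (2.55 to 3.64), 1.75 and 1.51. 1300010F03Rik held 184, 90, 76 and 17 tags, with 3.04, 2.12 and 1.75, and these members were called with every antibody except Gphn, which fell short of 2-fold with 7G8.

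Some of these 5′ ends are shared with another gene. The TSS window of 39 members (7.75%) held the start of a protein-coding gene of another symbol, and tags cannot be assigned to either. The median H3K9ac level was 1.96 in these 39 and 1.04 in the 464 others, and 34 (87.2%) against 244 (52.6%) were called. With 13HH3, 10 (25.6%) against 57 (12.3%) were called, and with 7G8, 12 (30.8%) against 26 (5.60%). Xrcc4 starts 126 bases from Tmem167 on the opposite strand, and 5033411D12Rik, at 3.11 in H3K9ac, starts 681 bases from 2810021B07Rik. Fgfr2 starts 2 bases from Ctbp2, a transcriptional corepressor, on the same strand, and Gm20388, at 2.56, starts 8 bases from Usp10, a deubiquitinase, on the same strand.

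Length can rest on a single annotated transcript. Of the 29 transcripts of Fgfr2 only 1 reaches 300 kb, with a length of 3009 kb, and the next is 103.7 kb long. Gm20388, the longest member at 4435 kb, spans other genes, Usp10 among them. Among all members, 109 have several transcripts of which 1 reaches 300 kb, 42 have a single transcript, and 11 reach the length only through transcripts that are each shorter.

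At the other end, 6 members stood between -1.48 and -1.28 for H3K9ac at the 5′ end. Agbl1, a carboxypeptidase that removes glutamates from tubulin (chr7:83462958-83911494, plus strand), held 8 H3K9ac, 32 13HH3, 31 7G8 and 22 input tags, and its H3K9ac level of -1.48 (interval -3.10 to -0.50) was the lowest of the 503. Its H3K14ac levels were 0.35 (-0.45 to 1.23) and 0.18 (-0.64 to 1.05), neither separable from input at this depth. Rbms3, an RNA-binding protein, held 16, 52, 30 and 40 tags, with -1.46 (-2.52 to -0.72) for H3K9ac, while its highest annotated start, 377.8 kb away, stood at 0.85. Ppfia2 (liprin-alpha-2, a presynaptic scaffold) and Unc13c (a priming factor of synaptic vesicles) both stood at -1.32, and Cntnap5a, a neural adhesion protein, at -1.28. Atp8a2, a phospholipid flippase, stood at -1.44 with 34, 39, 50 and 80 tags, and it lies in a region of raised input. None of these 6 had a CpG-rich TSS. The TSS windows of 2 members, Gm10406 and Skint6, held no input tag, where up to 3 tags (1.55 scaled tags) could have been missed.

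A different start carried the mark in part of the members. With all annotated starts of a gene read, 327 members (65.0%) were called for H3K9ac at 1 or more, against a background of 57.9% of all protein-coding genes, 116 (23.1%) for 13HH3 against 18% (3862 of 21418), and 67 (13.3%) for 7G8 against 17.2%. The H3K9ac share was 71.4% for genes of 100 to 300 kb and 72.6% for those of 30 to 100 kb, both above the members. A call at a start over 5 kb from the 5′ end, with none at the 5′ end itself, was made in 45 members (8.95%) for H3K9ac, against 1.85% of all genes and 4.84% of genes of 100 to 300 kb. For 13HH3 it was made in 42 members (8.35%) against 2.20% and 7.99%, and for 7G8 in 29 (5.77%) against 1.29% and 4.78%. The members had 5.38 annotated starts a gene on average, genes of 100 to 300 kb 4.72 and genes under 30 kb 2.58, and more starts, and more room between them, give more chances of such a call. Macf1, a crosslinker of actin and microtubules, stood at -0.03 at its 5′ end and at 2.36 at a start 19.6 kb away. Pde4d, a cAMP phosphodiesterase, stood at 0.18 at its 5′ end and at 2.40 at a start 810.7 kb away. Etl4 stood at 1.17 and at 2.55 at a start 812.8 kb away. The shares were not corrected for the number of starts.

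In the rest of the body, the 8 highest members stood between 0.50 and 0.84 for H3K9ac. Msi2, an RNA-binding protein of the Musashi family (chr11:88152884-88579827, minus strand), held 9.28 H3K9ac, 9.09 13HH3, 6.84 7G8 and 5.18 input scaled tags per kb in its rest, or 0.84 (interval 0.78 to 0.90), 0.81 and 0.40 over input. Rere, a corepressor of the atrophin family (chr4:149655755-149996075, plus strand), held 9.16, 8.02, 6.92 and 5.27, or 0.80 (0.73 to 0.86), 0.60 and 0.39. The median member held 2.72, 3.84, 4.21 and 3.98, so both had over 3 times its H3K9ac density while their input was close to 1.3 times its own.

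Macf1 and its relative Dst, both giant plakins that link cytoskeletal filaments, were higher in H3K9ac than in H3K14ac. Macf1 stood at 0.78 (0.70 to 0.85) for H3K9ac, 0.03 for 13HH3 and -0.02 for 7G8. Dst stood at 0.50 (0.45 to 0.56), 0.19 (0.13 to 0.25) and -0.14, and Stag1, a subunit of cohesin, at 0.50 (0.42 to 0.59), 0.00 and 0.22. Arl15, a small GTPase, stood higher over input in 13HH3 (0.96, interval 0.89 to 1.03) than in H3K9ac (0.57, 0.50 to 0.65) and 7G8 (0.54). Bins outside genes stood at -0.54 for H3K9ac and -0.16 for 13HH3. The gap between these antibodies in Arl15 therefore depends on the scaling, which the intervals do not cover. The 13HH3 level of Arl15 was the highest of the 503, followed by Nedd4l, a ubiquitin ligase, at 0.82, Msi2 at 0.81 and Plcb4, a phospholipase C, at 0.78.

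For 7G8 the highest bodies were those of Skint5, at 1.35 (interval 1.20 to 1.51), Dnahc11, an axonemal dynein heavy chain, at 0.81, and Ptprn2 and Gphn, both at 0.75. Skint5 held 0.665, 0.645, 1.20 and 0.470 tags per kb in the 4 libraries, with an input at 0.118 times that of the median member. The other 3 lie on chromosome 12, where 22 members had a median rest of -0.26 (H3K9ac), 0.08 (13HH3) and 0.42 (7G8), against -0.46, -0.05 and 0.08 over all members. The 1 Mb windows of the whole chromosome stood at -0.01, 0.21 and 0.31, where the autosomes stood at -0.17, -0.01 and 0.08, and the part of the chromosome in these 3 values was not tested.

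Most of the lowest H3K9ac bodies lay in regions where all 3 ChIP libraries stood under input. In 43 of 2377 autosomal windows of 1 Mb all 3 ChIP libraries stood at least 0.5 below input on the log2 scale, 18 of them on chromosome 17, 17 on chromosome 6, 4 on chromosome 14, 3 on chromosome 15 and 1 on chromosome 12. In 13 windows all 3 stood as far above it, 11 of them on chromosome 12, and the median windows of the X chromosome stood at -0.76, -0.81 and -0.53. Such blocks concern the 3 ChIP libraries alike, and whether input and ChIP came from the same cells was not tested. The 14 members with most of their length in the 43 windows held 9 of the 10 lowest H3K9ac bodies, and the windows were chosen by the same ratios. Ptprm, a receptor tyrosine phosphatase, held 3.01 H3K9ac, 4.59 13HH3, 4.39 7G8 and 12.9 input tags per kb, or -2.10, -1.49 and -1.56 over input. Ltbp1, which binds latent TGF-beta, held 3.31, 4.95, 4.64 and 11.5, or -1.79, -1.21 and -1.30. Over the 14 members input was 1.28 to 3.24 times the median member, while H3K9ac was 0.62 to 1.47 times, 13HH3 0.66 to 1.47 times and 7G8 0.67 to 1.27 times. Pik3c2g had the lowest of these values in every library, so its ChIP libraries were low as well. The 14 are called members in regions of raised input, although the windows were chosen by ratios and not by input level.

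**Figure D4:**
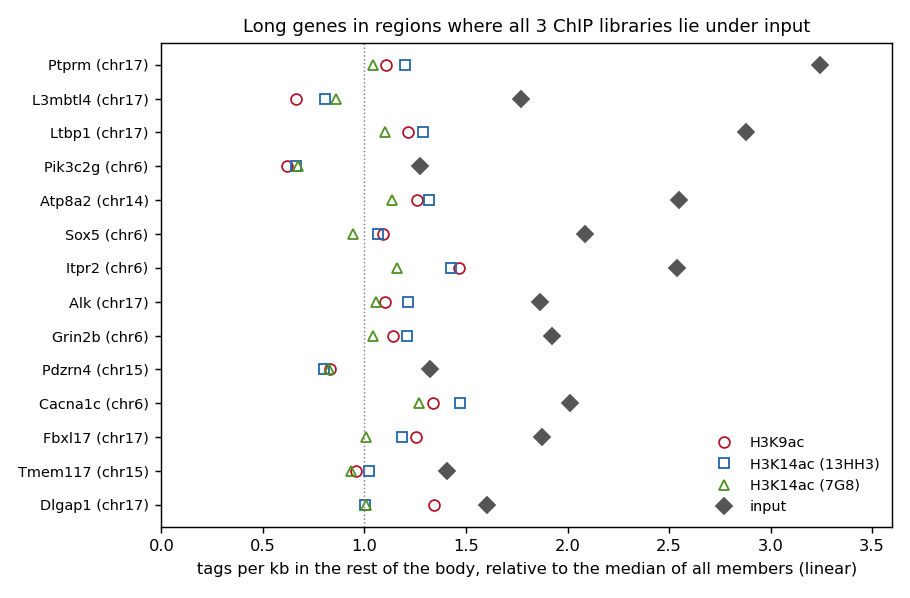
Tags per kb in the rest of the body relative to the median of the 503 members (linear axis), for the 14 members in 1 Mb windows where all 3 ChIP libraries lie at least 0.5 under input. Each row is a gene and each symbol a library. Input (diamonds) lies at 1.28 to 3.24 times the median, to the right of the 3 ChIP libraries in every row.

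Without these 14 members the medians of the 489 others moved little, to 1.16 (TSS window), -0.36 (first 20 kb) and -0.46 (rest) for H3K9ac. Calls under input in the rest fell to 307 for H3K9ac, 73 for 13HH3 and 23 for 7G8. Ano2, a calcium-activated channel of the anoctamin family, at -1.33, was the member outside these windows among the 10 lowest. A comparison that leaves out the input was made by setting H3K9ac over 7G8. The median was then 0.98 in the TSS window, where 439 of 503 members lay above 0, -0.41 in the first 20 kb and -0.58 in the rest, where 33 members (6.56%) did. Genes of 100 to 300 kb stood at 1.14, -0.02 and -0.09, and those of 30 to 100 kb at 1.22, 0.29 and 0.28, an order by length as over input. In the TSS window 7G8 over input itself rose from the longest to the shortest of these classes (0.18, 0.36 and 0.48), and in the first 20 kb it had no order. In the rest it fell (0.08, 0.04 and -0.11) and adds to the order there, where 13HH3 over 7G8 stood at -0.13, 0.11 and 0.16, an order that 13HH3 over input did not have. Macf1 (0.80), Dst (0.64), Msi2 (0.44) and Rere (0.41) were again among the highest, and Prkd1 (-1.06), Sema5a (-1.06), Cntn6 (-1.02) and Csmd1 (-1.01) among the lowest.

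By function, adhesion and channel genes had the lowest shares of 5′ ends called for H3K9ac. Of 61 members that act in synaptic and neural adhesion, 24 (39.3%) were called for H3K9ac, with a median TSS window of 0.85 and a median rest of -0.70, and 53 were under input in the rest. Of 43 ion channels and transmitter receptors, 15 (34.9%) were called, with medians of 0.75 and -0.58, and 38 were under input. The 31 guidance receptors and ligands had 17 called (54.8%), with medians of 1.11 and -0.67, and 26 were under input. For comparison, the medians over all 503 members were 1.13 and -0.46, 278 (55.3%) were called, and 321 (63.8%) were under input, where 26.6% of all genes with a counted rest were.

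Regulators and general machinery stood higher. Of 46 transcription and chromatin regulators 33 (71.7%) were called, with medians of 1.34 and -0.38, and of 40 members of machinery used in most cell types 27 (67.5%), with medians of 1.47 and -0.31. The 49 signalling enzymes had 31 called (63.3%), with medians of 1.24 and -0.37. The 19 members at common fragile sites, which break under replication stress, had 15 called (78.9%), with medians of 1.5 and -0.45, and all 19 are also counted in another of these lists, 8 of them in the machinery and 5 in adhesion. The 233 members on none of the lists had 131 called (56.2%), with medians of 1.15 and -0.39. In the rest, 27 of the regulators, 19 of the machinery, 27 of the signalling enzymes and 10 of the fragile site members were under input.

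With the H3K14ac antibodies, channels, adhesion and guidance were again the 3 lowest of these lists, in other orders. With 13HH3, the called share was 11.5% for adhesion, 6.98% for channels, 9.68% for guidance, 19.6% for regulators, 8 of 40 for machinery, 26.5% for signalling enzymes, 21.1% for fragile sites and 10.3% for the members on no list, against 13.3% of all members. With 7G8 none of the 31 guidance members was called, where 2 of the adhesion members (3.28%) and 1 of the channels (2.33%) were, against 8.70% of the regulators, 12.2% of the signalling enzymes, 15.8% of the fragile site members, 6 of the 40 machinery members and 7.55% of all members. Over all protein-coding genes the share was 14.6% for 13HH3 and 14.9% for 7G8, so the machinery and fragile site members lay near that background for 7G8.

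The lists also differed in base composition, and the adhesion and channel members, lowest in H3K9ac calls, had the lowest shares of CpG-rich TSSs. A CpG-rich TSS was found in 41.0% of the adhesion members, 48.8% of the channels, 57.5% of the machinery, 58.7% of the regulators, 63.2% of the fragile site members, 65.3% of the signalling enzymes and 77.4% of the guidance members. The median GC content of the rest was lowest in the adhesion members (38.8%), followed by fragile sites (39.7%), channels (40.1%), guidance (40.2%), machinery (40.9%), signalling enzymes (42.3%) and regulators (42.4%). The part of base composition in the counts was not tested.

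Against their own flanks the lists differed less than in level. The median of rest minus flanks for H3K9ac was -0.02 for adhesion, -0.05 for channels, -0.02 for guidance, 0.03 for regulators, 0.02 for machinery, -0.11 for signalling enzymes and -0.02 for fragile sites, against -0.04 for all members. The median body of the adhesion members was thus as low as its surroundings.

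Among the longest members, with libraries scaled by their totals, the neural genes described here stood below 0 for H3K9ac along the body. Cntnap2 fell short of the 0.32 needed for a call. Lrp1b, a large lipoprotein receptor relative (2058 kb), held 81, 52, 60 and 28 tags at the TSS window, or 1.21 (interval 0.63 to 1.94) for H3K9ac, and stood at -0.54 in the rest. Ptprd, a synaptic receptor phosphatase (2271 kb), stood at 0.53 (-0.20 to 1.37) and -0.46, and Cntnap2, a neural adhesion protein (2241 kb), at -0.35 (-1.22 to 0.47) and -0.28. Dlg2, a postsynaptic scaffold (1945 kb), stood at -0.51 and -0.70, and Csmd1, a large transmembrane protein (1643 kb), at 1.37 and -0.68. For 7G8 the rest stood at 0.44 in Cntnap2, 0.35 in Ptprd, 0.33 in Csmd1, 0.21 in Lrp1b and 0.15 in Dlg2, with intervals above 0. It stood under input in Dpp6, a potassium channel subunit, at -0.23 (-0.27 to -0.19), and in Dab1, an adaptor of reelin signalling, at -0.08 (-0.12 to -0.04). Bins outside genes had 7G8 medians of 0.21 at 36% GC, 0.18 at 37%, 0.14 at 38%, 0.06 at 40% and -0.03 at 44%. GC content of the rest was 36.3% in Lrp1b, 38.2% in Dlg2 and 44.0% in Dpp6. It was 36.9% in Ptprd, 37.8% in Cntnap2 and 40.2% in Csmd1. For 7G8, Lrp1b and Dlg2 thus stood near such bins and the last 3 above them. For H3K9ac such bins had medians of -0.53 at 36% GC, -0.57 at 37%, -0.61 at 38% and -0.62 at 40%. By that measure Lrp1b stood near them, Ptprd and Cntnap2 above them, and Dlg2 and Csmd1 below them. The part of GC content was not tested. The fragile site genes Macrod2 (1.86 and -0.32), Immp2l (1.84 and -0.00) and Fhit (0.51 and -0.92) spanned a range of almost 1 log2 unit in the rest. Auts2, a regulator associated with Polycomb (1106 kb), stood at 1.91 and -0.29 for H3K9ac and at 0.39 for 13HH3 in the rest.

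Dense acetylated windows inside the bodies were few. A 1 kb window was counted as dense with at least 10 scaled tags at 4-fold or more over input, over 5 kb from any annotated start. The members held 489 dense H3K9ac windows, or 1.98 per Mb of counted body, while genes of 100 to 300 kb held 6.42 per Mb, genes of 30 to 100 kb 13.9 and sequence outside genes 4.30. Over all windows 0.513% were dense for H3K9ac, 0.167% for 13HH3 and 0.0579% for 7G8. For 13HH3 the members held 1.37 per Mb against 1.19 outside genes, and for 7G8 0.291 against 0.554. The members thus lay under the sequence outside genes for H3K9ac and 7G8, and slightly over it for 13HH3.

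**Figure D5:**
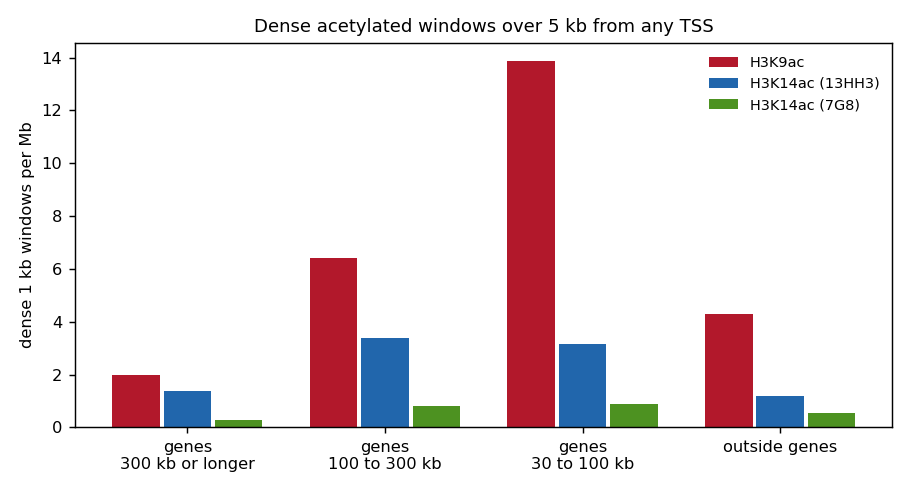
Dense 1 kb windows per Mb, over 5 kb from any annotated start, for 3 length classes of genes and for sequence outside genes. Bars start at 0 and stand for 1 library each, so there are no error bars. For H3K9ac the bar of genes of 300 kb or longer (1.98) is the lowest of the 4.

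They were gathered in a few genes. A dense H3K9ac window was found in 146 members (29.0%), 21 members had 5 or more, and the 10 with the most held 207 of 489 (42.3%). Joined, they made 373 sites, of which 303 were 1 window wide and the widest 9 kb, and 32 windows touched an annotated exon. Gm20388 held 82 (26.7 per Mb), Etl4 22 (32.7 per Mb), Msi2 22 (67.5 per Mb) and Fgfr2 17 (7.47 per Mb). Cntnap2 held 12 (5.98 per Mb) and Dst 12 (35.3 per Mb). Where genes overlap, a window was credited to the longest of them. Windows of Gm20388 and Fgfr2 may therefore lie in shorter genes that these span. Within dense H3K9ac windows the median number of scaled tags was 19.4 for H3K9ac, 10.2 for 13HH3, 9.65 for 7G8 and 3.11 for input, and in the other windows 2.59, 3.24, 4.20 and 3.62. Both H3K14ac antibodies were thus denser in the windows chosen by H3K9ac and input, at 1.45 against -0.12 over input for 13HH3 and 1.36 against 0.05 for 7G8, while input was lower there, as the choice of windows favours. Of the dense H3K9ac windows 80 were also dense for 13HH3 (16.4% of the H3K9ac and 23.6% of the 13HH3 windows), and 38 for 7G8 (7.77% and 52.8%).

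The densest window lay in an intron of Etl4, at chr2:20590001-20591000, 759.1 kb from the 5′ end and 44.4 kb from the nearest annotated start, and its centre is the first of the intronic sequences printed above. It held 184 H3K9ac, 73 13HH3, 57 7G8 and 7 input tags, or 4.12 (interval 3.38 to 5.79), 2.91 (2.10 to 4.58) and 2.43 (1.59 to 4.10) over input, in a site of 9 kb. This level over 1 kb was above that of the 4 kb TSS window of every member. The window of Gm20388 at chr8:125080001-125081000 held 151, 34, 46 and 13 tags, or 3.10, 1.11 and 1.39, with the nearest start 5.27 kb away. That of Fgfr2 at chr7:140197001-140198000, 117.5 kb from the 5′ end, held 131, 55, 52 and 11 tags, or 3.10, 1.98 and 1.77.

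Single strong sites also lay in other members. Cntnap2 had a 7 kb site at chr6:47136001-47143000, whose densest window, 2130 kb from the 5′ end, held 118, 31, 34 and 7 tags, or 3.49, 1.73 and 1.72, while its TSS window held 25, 31, 24 and 27. Slit3, a secreted guidance ligand, had a window with 124, 64, 39 and 9 tags at 3.27 for H3K9ac, and Hydin, a protein of motile cilia, one with 120, 78, 43 and 8 tags at 3.36. The rest of these bodies stood at -0.28 (Cntnap2), -0.09 (Slit3) and 0.22 (Hydin) for H3K9ac. The windows were chosen by H3K9ac over input, and in the next of them by H3K9ac density the H3K14ac levels were not all separable from input, as in Dst, at 0.57 (interval -0.60 to 2.03) for 13HH3, and in Msi2, at 0.59 (-0.29 to 1.63) for 13HH3 and 0.25 (-0.69 to 1.29) for 7G8.

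The letters of the Oct octamer (ATGCAAAT), a Sox core (AACAATG) and an Esrrb core site (TNAAGGTCA) were searched on both strands in the central 300 bases. They were found in 1.02%, 3.27% and 2.04% of the 489 dense H3K9ac windows, and in 2.60%, 6.89% and 1.74% of 2466 other windows of the bodies. The median GC content was 47.7% in the dense windows and 40.7% in the others, and none of the 3 printed intronic sequences held these letters.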

How the data were processed

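ChIP-seq was performed on mES cells with 1 library for each of 3 antibodies and 1 input. The authors aligned reads with ELAND to mm9, allowing 1 mismatch, and deposited each library as a list of aligned tags, 1 line a tag (positions, with no counts, score or normalization). The version of ELAND is not given in the sources used here. Replicate libraries were not analysed here, so the analysis is descriptive.

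Each tag was moved 100 bases toward the fragment centre. Tags repeated at a position and strand were counted once, which removed 738619 of 22365676 deposited tags (3.30%) from 13HH3. Tags scaled to 10000000 per library were compared with input as log2 with a pseudocount of 1. Zones were counted when at least 5 kb were left, and intervals of tag ratios were exact (Clopper-Pearson, 95%). Counting was tested on simulated data. The annotation was GENCODE vM1, and sequences came from the mm9 genome. The tools were matplotlib 3.10.9, pandas 2.3.3, Python 3.11.15, scipy 1.17.1 and numpy 2.4.6.

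Members and gene lists were chosen with earlier results of these data known. Members named were the longest, those highest and lowest by zone and antibody, those with most dense windows, the longest of each list and those with the largest and smallest difference of TSS window and rest, and 1 member that this rule names is not reported here. Flanks, the 3 parts of the body, other starts, shared starts, transcript numbers, CpG classes, motifs, overlap of dense windows, raised input and 7G8 as denominator were added after the data were seen, and Slit3, Hydin and Ano2 were named after their values were seen. Alternatives were another scaling, repeated tags, other left-out bases, GC correction, 500 kb, another TSS, pseudocount and thresholds.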

Additional observations from a re-analysis of the deposited data

How the results depend on the processing

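No result has a replicate, and intervals cover counting error only. Scaling ChIP to input by the bins outside genes turned the median of the first 20 kb to 0.14 (H3K9ac), 0.14 (13HH3) and -0.013 (7G8) and that of the rest to 0.077 (H3K9ac) and 0.11 (13HH3), with 0.0079 for 7G8. Correction for GC content with the same bins turned them to 0.13, 0.12 and -0.012 in the first 20 kb, and to 0.075 (H3K9ac) and 0.10 (13HH3) in the rest. Both settings set the median bin outside genes to input, and in these the H3K9ac and 13HH3 medians of the body are above it. Members over input in the rest then numbered 132 and 133 (H3K9ac), 123 (13HH3, bins) and 54 and 45 (7G8), and those under it 70 and 69 (H3K9ac), 39 and 33 (13HH3) and 49 and 38 (7G8). Scaling by bins also gave 25 members called at the TSS window with 7G8, and 5.05 (H3K9ac) and 2.28 (13HH3) dense windows per Mb.

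With a length minimum of 500 kb the set is smaller, with 97, 31 and 11 members called at the TSS window (H3K9ac, 13HH3, 7G8), 4, 22 and 44 over and 136, 34 and 14 under input in the rest, and medians of -0.55 (H3K9ac) and -0.14 (13HH3) there. At 1.5-fold, 152 (13HH3) and 97 (7G8) members were called at the TSS window, and 3, 19 and 9 over and 183, 23 and 16 under input in the rest. With 20 scaled tags there were 0.955, 0.247 and 0.0243 dense windows per Mb. Without the 14 members in regions of raised input, an alternative chosen after seeing the data, 23 members were under input for 7G8. The stricter settings leave fewer members or windows by their construction, and for the others the cause was not tested. Counting repeated tags, leaving out no bases, not counting the own TSS, a pseudocount of 0.1 and the TSS of most transcripts turned no median and moved no count by over 1.5 times.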
